A study of Homo sapiens with 6 samples.

Results

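AP-1 is a family of dimeric transcription factors, and the genes described here are its main subunits in the Fos family (FOS, FOSL1 and FOSL2) and the Jun family (JUN, JUNB and JUND), the related factor ATF3, and the immediate early genes EGR1, IER2 and IER3. The members were listed by symbol, and all 10 of the 10 symbols were found among the 29476 genes of the count table and passed the filter on low counts, which kept 15615 genes. They were measured by RNA sequencing of polyadenylated RNA in A549, an established line derived from a human lung adenocarcinoma. There were 3 libraries of cells transfected with a nontargeting siRNA (siCtrl) and 3 of cells transfected with 1 siRNA against the RNA helicase DDX17 (siDDX17). Both groups were grown with fetal bovine serum and transfected with a lipid reagent, and the labels describe siCtrl as control plasmid although the titles and the methods name an siRNA. Only 1 targeting sequence was used, and the sources give a harvest time for the RT–qPCR cultures but not for the sequenced ones.

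Immediate early genes are transcribed within minutes of a growth factor, stress or serum signal, without new protein synthesis, and their mRNAs are usually short-lived. MAP kinases drive this response by phosphorylating transcription factors that already sit on the promoters. Jun proteins pair with each other or with Fos proteins through leucine zippers, whereas Fos proteins need a Jun partner, and the subunits differ in how strongly they activate their targets, so the mixture of subunits in a cell matters as well as their total.

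The depth was 30658136 to 39182371 counted reads in siCtrl and 35406246 to 36915297 in siDDX17, and the 10 genes together took 0.0481% to 0.0588% of the reads of a library. DDX17 itself fell from 177, 184 and 206 to 32.1, 30.8 and 30.4 CPM (counts scaled to the effective library size by TMM, edgeR) in libraries 1 to 3 of each group, a log2 fold change of -2.60 (SE 0.0685, adjusted p = 5.89e-11). The library siCtrl 1 stood apart from the other controls, with a score of 27.6 on the second principal component against -11.2 and -16.9 for siCtrl 2 and 3. Of 5 epithelial markers, 3 were called lower in siDDX17 by edgeR, KRT8 (log2 fold change -0.28, adjusted p = 0.00216), KRT18 (-0.18, adjusted p = 0.0332) and KRT19 (-0.32, adjusted p = 0.00418), 1 higher, EPCAM (1.35, adjusted p = 7.68e-05), and CDH1 did not pass (-0.12, adjusted p = 0.247). KRT8 was at 1312.15 to 1371.15 FPKM in siCtrl and 1189.06 to 1267.08 FPKM in siDDX17, and EPCAM was between 0.34 and 0.48 FPKM in siCtrl and between 1.09 and 1.14 FPKM in siDDX17. The summed FPKM of 4 alveolar type II markers was 0.50 to 0.59 in siCtrl and 0.76 to 1.14 in siDDX17, that of 3 leukocyte markers 0.43 to 0.65 and 0.73 to 1.12, nearly all from CD68, that of 4 fibroblast markers 0.41 to 0.53 and 0.43 to 0.51, and that of 4 endothelial markers 0.03 to 0.06 and 0.01 to 0.03. Of the 2 alveolar type II markers that passed the filter, NAPSA was called higher (log2 fold change 0.895, adjusted p = 0.00958 from edgeR). It averaged only -0.106 log2 CPM. SFTPC did not exceed 0.10 FPKM, and PTPRC, the pan-leukocyte marker, had at most 2 reads in any library. The part of these low levels in the differences below was not tested.

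The 10 genes did not move together when DDX17 was knocked down. Of these, 4 were higher in siDDX17 (JUN, FOS, JUND and FOSL2), 4 were lower (EGR1, JUNB, FOSL1 and IER3), and ATF3 and IER2 did not pass the test, the quasi-likelihood test of edgeR, with p adjusted over all 15615 genes by Benjamini-Hochberg and a threshold of 0.05. Among all tested genes 24.5% were called higher and 24.3% lower, so that 50.1% of the calls were higher, a share that was 67.7% with scaling by library size only and 68.7% on the FPKM scales. With a log2 fold change over 1 also required, 0 of the 10 genes were called higher and 1, EGR1, lower, where all tested genes gave 4.65% and 2.92%. The 3 libraries of a group did not overlap with those of the other group for 8 of the 10 genes, as for 56.5% of all tested genes. The median log2 fold change of the 10 genes was -0.10 and that of all tested genes was 0.01. The median size of the log2 fold change, whatever its sign, was 0.52 for the 10 genes and 0.29 for all tested genes. In sequencing of bulk RNA, a smaller share of cells that express a gene and less of its RNA in each cell cannot be told apart. Nothing in the labels says whether the libraries came from separate transfections, while the methods call them biological replicates.

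**Figure D1:**
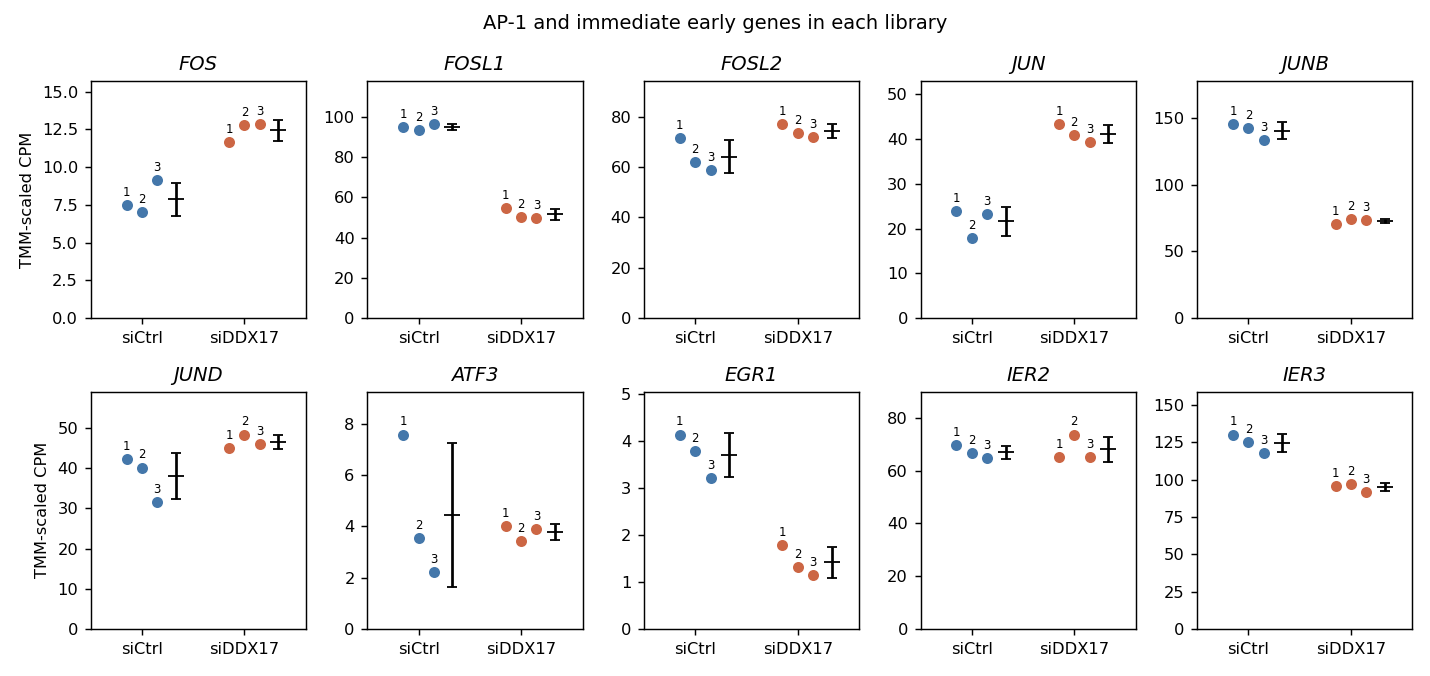
Each panel shows 1 gene, with TMM-scaled CPM on a linear axis from 0, 1 point per library with its replicate number, and the mean with its SD (n = 3) as a bar beside the points. JUN, FOS, JUND and FOSL2 lie higher in every siDDX17 library, EGR1, JUNB, FOSL1 and IER3 lie lower in every one, and ATF3 and IER2 overlap.

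JUN (ENSG00000177606.6) encodes c-Jun, the strongest transcriptional activator of the Jun family. The gene has 1 exon at chr1:58776845-58784048 on the minus strand (GRCh38, GENCODE release 44, here and for the genes below). Its CPM values were 23.8, 17.8 and 23.2 in siCtrl 1 to 3 (mean 21.6 ± 3.30, SD, n = 3) and 43.4, 40.8 and 39.4 in siDDX17 1 to 3 (41.2 ± 2.02). The lowest knockdown library thus lay well above the highest control, with siCtrl 2 lowest of all. The fold change was 1.90 with a 95% interval of 1.65 to 2.19, a log2 fold change of 0.93 (SE 0.0954, adjusted p = 3.94e-06 from edgeR). Over the fits without 1 library, the log2 fold change of JUN stayed between 0.80 and 0.98 and passed each time.

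The promoter of JUN is shown because this gene had the largest increase of the 10. RefSeq places it on the minus strand of GRCh38.p14 at chr1:58783998-58784297, from 250 bases before to 50 bases after the start of transcription, and the capitals mark a match to TGACNTCA, the form of AP-1 and CREB site with 8 bases.

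JUN promoter: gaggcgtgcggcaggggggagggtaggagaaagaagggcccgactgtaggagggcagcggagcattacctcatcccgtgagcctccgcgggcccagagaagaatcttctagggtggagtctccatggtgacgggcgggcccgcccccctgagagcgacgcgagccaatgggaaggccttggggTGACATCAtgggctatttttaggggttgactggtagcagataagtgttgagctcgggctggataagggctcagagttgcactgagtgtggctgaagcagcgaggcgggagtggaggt

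The match, TGACATCA, began at position -67 from the start of transcription. The same search on both strands found TGACNTCA in 7.72% of the 35116 promoters in that table. A match is a description of the letters and was not tested as a binding site.

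JUNB (ENSG00000171223.5) encodes a Jun protein that activates AP-1 sites more weakly than c-Jun and can oppose it, from 1 exon at chr19:12791486-12793315 on the plus strand. Control values were 146, 143 and 133 CPM (141 ± 6.37, SD, n = 3), and those after knockdown were 70.8, 74.0 and 73.4 CPM (72.7 ± 1.71), each in library order 1 to 3, as for the genes below. The spread within each group was small against the distance between them. JUNB fell by 48.2%, a log2 fold change of -0.95 (SE 0.0569, adjusted p = 3.23e-08 from edgeR). The value lay between -0.99 and -0.93 without any 1 library. HOOK2, on the opposite strand, overlaps JUNB and had 171 to 267 reads a library, where JUNB had 2699 to 4999. The library kit keeps strand, but whether the counting used it is not given in the sources used here.

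JUND (ENSG00000130522.5), the Jun protein that is expressed most constantly in resting cells, has 1 exon at chr19:18279694-18281622 on the minus strand. The siCtrl libraries had 42.3, 40.2 and 31.5 CPM (38.0 ± 5.75, SD, n = 3), against 45.1, 48.4 and 46.0 CPM in siDDX17 (46.5 ± 1.71). Its increase was smaller than that of JUN and the groups came close to each other, with siCtrl 3 below the other controls. The log2 fold change was 0.29 (SE 0.0920, adjusted p = 0.0174 from edgeR), a fold change of 1.23 with a 95% interval of 1.07 to 1.41. The call did not hold without siCtrl 3 (0.17, adjusted p = 0.0580), without siDDX17 2 (0.26, adjusted p = 0.0843) or without siDDX17 3 (0.30, adjusted p = 0.0503) in the same edgeR test.

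FOS (ENSG00000170345.9) encodes c-Fos, the founding member of the family and a classic serum-induced gene, from 4 exons at chr14:75278826-75282230 on the plus strand. Few reads, 201 to 496 in a library, came from it. In siCtrl it was at 7.47, 7.03 and 9.13 CPM (7.88 ± 1.11, SD, n = 3), and in siDDX17 at 11.6, 12.8 and 12.9 CPM (12.4 ± 0.682). Every knockdown library was above every control, and siCtrl 3 was the nearest to them. The fold change was 1.57 with a 95% interval of 1.34 to 1.84, a log2 fold change of 0.65 (SE 0.106, adjusted p = 0.000208 from edgeR). Without any 1 library the log2 fold change lay between 0.57 and 0.77, and FOS passed in each of these fits.

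FOSL1 (ENSG00000175592.8) encodes FRA1, a Fos protein that lacks the transactivation domain of c-Fos and is abundant in many carcinoma lines, from 4 exons at chr11:65892049-65900573 on the minus strand. Without the knockdown it had 95.1, 93.5 and 96.5 CPM (95.02 ± 1.51, SD, n = 3), and with it 54.7, 50.4 and 49.5 CPM (51.5 ± 2.76). The controls lay close together and far from the knockdown libraries. FOSL1 fell by 45.8%, a log2 fold change of -0.88 (SE 0.0579, adjusted p = 6.96e-08 from edgeR). It moved in the opposite direction to FOS, and the value lay between -0.93 and -0.86 without any 1 library.

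FOSL2 (ENSG00000075426.11), which encodes the related protein FRA2, has 4 exons at chr2:28392448-28417317 on the plus strand. Values of 71.5, 61.9 and 58.8 CPM in siCtrl (64.1 ± 6.59, SD, n = 3) stood against 77.1, 73.5 and 71.9 CPM in siDDX17 (74.2 ± 2.67). The groups were separated only narrowly, since siCtrl 1 reached almost the level of siDDX17 3. The log2 fold change of 0.21 (SE 0.0715, adjusted p = 0.0258 from edgeR) is a fold change of 1.16 with a 95% interval of 1.04 to 1.29. This call was the least stable of the 8. Without siCtrl 1 the value was 0.29 and it passed (adjusted p = 3.11e-05 from edgeR). It did not pass without siCtrl 2 (0.18, adjusted p = 0.0987), siCtrl 3 (0.15, adjusted p = 0.115), siDDX17 1 (0.18, adjusted p = 0.107), siDDX17 2 (0.22, adjusted p = 0.0679) or siDDX17 3 (0.23, adjusted p = 0.0506) in the edgeR fits.

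ATF3 (ENSG00000162772.16), a stress-induced bZIP factor that pairs with Jun proteins, has 4 exons at chr1:212565334-212620777 on the plus strand. It had 7.59, 3.53 and 2.22 CPM in controls 1 to 3, against 4.02, 3.43 and 3.89 CPM in knockdown libraries 1 to 3, from 83 to 257 reads. The means were 4.45 ± 2.80 and 3.78 ± 0.312 CPM (SD, n = 3). The controls differed widely, with siCtrl 1 above all knockdown libraries and siCtrl 3 below all of them. The log2 fold change of -0.23 did not pass (SE 0.314, adjusted p = 0.574 from edgeR), with a 95% interval of -0.91 to 0.45. Its direction rested on siCtrl 1, since without that library it was 0.41 and passed (adjusted p = 0.0367 from edgeR).

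EGR1 (ENSG00000120738.7), a zinc finger factor that binds GC-rich sites and is a classic immediate early gene, has 2 exons at chr5:138465479-138469303 on the plus strand. The controls were at 4.13, 3.78 and 3.20 CPM (3.70 ± 0.470, SD, n = 3) and the siDDX17 libraries at 1.79, 1.32 and 1.14 CPM (1.42 ± 0.335). These values rest on 108 to 140 reads in siCtrl and 44 to 69 in siDDX17, and the highest knockdown library remained clearly below the lowest control. EGR1 fell by 61.6%, a log2 fold change of -1.38 with a 95% interval of -1.78 to -0.98 (SE 0.186, adjusted p = 4.45e-05 from edgeR). It was the only 1 of the 10 genes past a log2 fold change of 1, and 2.80% of all tested genes had a larger log2 fold change by size. Without any 1 library the value lay between -1.59 and -1.25, and on log2(FPKM + 1), where the pseudocount is close to the level of this gene, it was -0.52.

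The promoter of EGR1 is shown because it had the largest change of the 10 genes and holds CArG boxes, the core of the serum response element that binds SRF. RefSeq places it on the plus strand of GRCh38.p14 at chr5:138465229-138465528, and the capitals mark the CArG boxes.

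EGR1 promoter: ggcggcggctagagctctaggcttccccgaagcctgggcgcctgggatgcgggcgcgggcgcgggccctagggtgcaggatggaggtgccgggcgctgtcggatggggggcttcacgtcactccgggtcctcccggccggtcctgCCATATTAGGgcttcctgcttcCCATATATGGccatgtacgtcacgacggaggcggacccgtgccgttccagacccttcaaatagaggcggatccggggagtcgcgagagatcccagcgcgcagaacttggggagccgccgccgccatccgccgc

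Its matches, CCATATTAGG and CCATATATGG, began at positions -105 and -83 from the start of transcription. A CArG box was found in 1.29% of the 35116 promoters. The table held promoters of 8 of the 10 genes, with 9 windows in all because ATF3 has a pair of them, and FOSL1 and IER3 were not among them. None of the other promoters of the 10 genes held a CArG box in this window. Sequence more than 250 bases before the start, of FOS as of the other genes, was not searched. TGACNTCA was found once each in JUN, JUND (TGACGTCA, position -200) and the first window of ATF3 (TGACATCA, position -123). TGANTCA, the form of AP-1 site with 7 bases, was found once, in FOSL2, as TGACTCA from base 5 after the start, and in 7.71% of all promoters. The windows of FOS, JUNB and IER2 held none of these letters.

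IER3 (ENSG00000137331.11), a stress-induced regulator of cell survival, has 2 exons at chr6:30743199-30744548 on the minus strand. In siCtrl the libraries gave 130, 125 and 118 CPM (124 ± 6.27, SD, n = 3), and in siDDX17 they gave 95.8, 97.1 and 92.0 CPM (94.99 ± 2.65). The groups did not overlap and each was narrow. IER3 fell by 23.7%, a log2 fold change of -0.39 (SE 0.0577, adjusted p = 9.73e-05 from edgeR), which stayed between -0.43 and -0.37 without any 1 library.

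IER2 (ENSG00000160888.6), a nuclear protein induced with FOS and JUN by serum, has 2 exons at chr19:13150411-13154911 on the plus strand. It had 69.6, 66.7 and 64.7 CPM in controls 1 to 3, against 65.2, 73.7 and 65.3 CPM in knockdown libraries 1 to 3 (means 67.0 ± 2.46 and 68.1 ± 4.90, SD, n = 3). The groups overlapped, and only siDDX17 2 stood above the controls. The log2 fold change of 0.02 did not pass (SE 0.0636, adjusted p = 0.796 from edgeR), and its 95% interval of -0.11 to 0.16 leaves room for fold changes of 0.923 to 1.12.

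**Figure D2:**
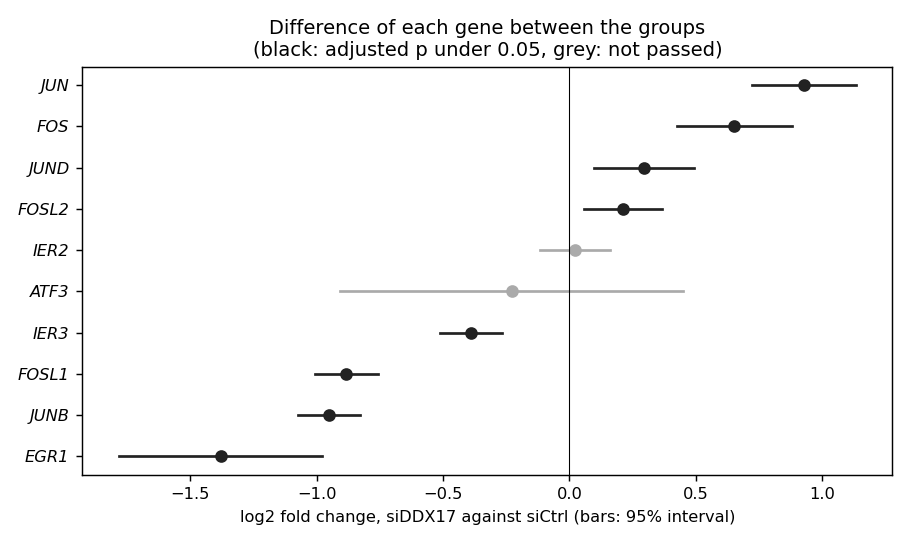
Log2 fold changes of the 10 genes in siDDX17 against siCtrl, on a linear axis, with 95% intervals from edgeR as bars. From EGR1 at -1.38 to JUN at 0.93, 4 genes in black lie below 0 and 4 in black lie above it, while ATF3 and IER2 in grey did not pass.

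The levels of different genes were compared in FPKM, which the authors divided by transcript length. In siCtrl the order of mean FPKM was IER3 (84.1 ± 5.25, SD, n = 3), JUNB (70.7 ± 3.88), FOSL1 (47.3 ± 1.61), IER2 (20.0 ± 1.06), JUND (18.7 ± 2.93), FOSL2 (8.65 ± 1.04), JUN (5.61 ± 0.961), FOS (2.46 ± 0.361), ATF3 (1.62 ± 1.05) and EGR1 (1.08 ± 0.145). Neighbours in this order had separate ranges over the 3 libraries except IER2 and JUND, FOS and ATF3, and ATF3 and EGR1. FOS, ATF3 and EGR1 were thus the least abundant of the 10 in the control cells. In siDDX17 JUND (25.0 ± 0.731) stood above IER2 (22.2 ± 1.36) and JUN (11.7 ± 0.546) stood beside FOSL2 (10.9 ± 0.381), and only the ranges of JUN and FOSL2 overlapped. IER3, JUNB and FOSL1 kept the first 3 places, at 70.1, 40.01 and 28.0 FPKM, and EGR1 the last, at 0.450 FPKM.

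The most abundant subunit of each family was called lower and the other members listed were called higher. Of these higher calls, those of JUND and FOSL2 were small and did not hold in several fits without 1 library, as given above. Their shares within the family restate these calls on the FPKM scale and are given as a description, with no test. JUNB made up 73.1%, 74.6% and 75.8% of the summed FPKM of JUN, JUNB and JUND in siCtrl 1, 2 and 3 and 51.6%, 52.0% and 52.9% in siDDX17 1, 2 and 3. The share of JUN was 5.91% ± 1.01 in siCtrl and 15.2% ± 0.918 in siDDX17, and that of JUND was 19.6% ± 1.85 and 32.6% ± 0.576 (SD, n = 3). The ratio of JUN to JUNB in FPKM was 0.0841, 0.0644 and 0.0894 in siCtrl 1, 2 and 3 and 0.315, 0.283 and 0.276 in siDDX17 1, 2 and 3, 3.68 times as high by the group means.

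In the Fos family FOSL1 made up 79.8%, 81.4% and 81.6% of the summed FPKM of FOS, FOSB, FOSL1 and FOSL2 in siCtrl 1, 2 and 3 and 65.9%, 64.3% and 64.2% in siDDX17 1, 2 and 3. The share of FOSL2 was 14.8% ± 1.38 in siCtrl and 25.3% ± 0.118 in siDDX17, and that of FOS was 4.199% ± 0.555 and 9.82% ± 0.895 (SD, n = 3). FOSB, the remaining Fos gene, was at most 0.165% of the sum in any library. The summed FPKM of the Fos family was 60.6, 55.8 and 58.9 in siCtrl 1, 2 and 3 and 45.1, 42.1 and 42.5 in siDDX17 1, 2 and 3. That of the Jun family was 102, 93.9 and 88.7 in siCtrl and 75.5, 77.3 and 77.1 in siDDX17. These are shares of mRNA, and protein was not measured in these files.

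**Figure D3:**
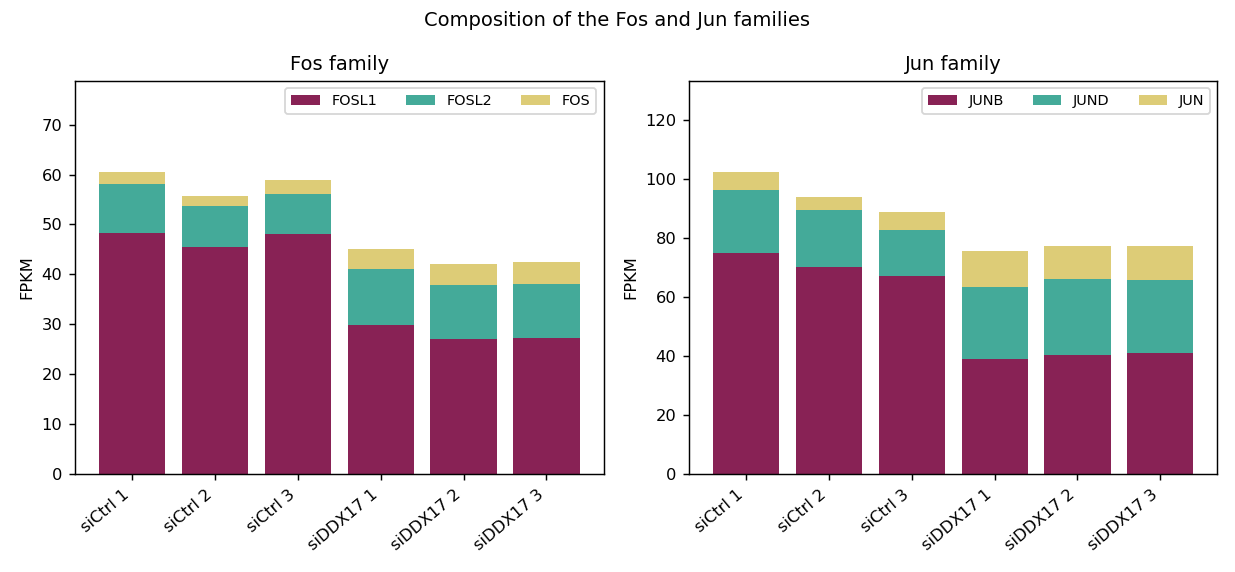
Stacked bars of FPKM in each of the 6 libraries for the Fos family (left; FOSB, at most 0.165% of the sum, is not drawn) and the Jun family (right), on linear axes from 0. The lowest segment, FOSL1 or JUNB, is shorter in all 3 siDDX17 libraries and the top segment, FOS or JUN, is taller.

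Genes around AP-1 were then counted in 5 lists of 106 genes, of which 97 passed the filter, 20 (20.6%) were called higher and 30 (30.9%) lower, with a median log2 fold change of -0.11. All tested genes gave 24.5% and 24.3%, and the shares in each list below are to be read against these. Beside the 10 genes, 10 of 12 other AP-1 family and partner genes were tested, of which 2 (20%) were higher and 3 (30%) lower. ATF7, a partner of Jun, rose from 24.1 ± 1.70 to 31.2 ± 1.602 CPM (SD, n = 3), a difference of 0.37 in log2 units. MAFG, a small Maf protein, fell by 0.76 on the log2 scale, from 86.9 ± 9.12 to 51.4 ± 2.53 CPM, and MAFF, its relative, by 0.37. The adjusted p values from edgeR were 0.000967, 2.84e-06 and 0.0243. The other called genes, named after their values were seen, were MAF (0.57), whose groups overlapped, and BATF2 (-1.37), which averaged 0.983 log2 CPM.

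Of 33 other immediate early genes 30 were tested, and 8 (26.7%) were higher and 7 (23.3%) lower, again without a common direction (median log2 fold change -0.09). CCN1, listed in the file as CYR61 and encoding a secreted matrix protein, rose from 21.997 ± 3.77 to 46.1 ± 1.99 CPM (SD, n = 3), a difference of 1.07 in log2 units. KLF6, a zinc finger factor, rose by 0.998, the antiproliferative gene BTG2 by 0.70 and the small GTPase gene GEM by 0.49 on that scale. MCL1, an antiapoptotic BCL2 relative, was at 272 ± 16.9 CPM in siCtrl and 106 ± 3.59 CPM in siDDX17 (log2 fold change -1.36). GADD45A (-0.81), KLF4 (-0.68) and CSRNP1 (-0.61) were lower as well, and GADD45A had 47.9 ± 18.0 CPM in siCtrl, a wide spread. The adjusted p values from edgeR of these 8 genes were between 3.01e-09 and 0.00414. EGR2, EGR3 and EGR4, the relatives of EGR1, did not pass the filter. NR4A3, an orphan receptor gene named here after its value was seen, had a log2 fold change of 1.42 (adjusted p = 0.0170 from edgeR) at an average of only -1.81 log2 CPM.

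All 26 genes of upstream kinases and transcription factors were tested, of which 5 (19.2%) were higher and 6 (23.1%) lower, with a median log2 fold change of -0.07. Lower genes included several kinases of the ERK and JNK pathways, which signal to FOS and JUN. MAP2K1, encoding the ERK kinase MEK1, fell from 91.5 ± 0.681 to 56.0 ± 0.882 CPM (SD, n = 3), a difference of -0.71 in log2 units. MAPK9, encoding JNK2, had -0.70, MAPK8, encoding JNK1, -0.39, and MAP2K2, encoding MEK2, -0.38. Higher genes were MAP2K7, an upstream kinase of JNK (0.56), the SRF coactivators MRTFA (0.51) and MRTFB (0.40), listed in the file as MKL1 and MKL2, and the kinase gene RPS6KA4 (0.24). MAPK10, encoding JNK3 and named after its value was seen, had 1.82 at an average of only -1.37 log2 CPM. Adjusted p values from edgeR for the 8 genes other than MAPK10 were between 2.03e-07 and 0.0197.

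Of 13 feedback inhibitors of MAP kinases 12 were tested, and 3 (25%) were higher and 5 (41.7%) lower (median -0.20). DUSP6, a phosphatase of ERK that is itself induced by ERK, fell from 45.9 ± 6.20 to 19.7 ± 0.600 CPM (SD, n = 3), a difference of -1.22 in log2 units. SPRY4 (-0.91), SPRED2 (-0.80) and DUSP4 (-0.45), further inhibitors of this pathway, were lower and DUSP16 (0.55) and SPRY2 (0.31) were higher. The calls also took in DUSP5 (-0.21) and, at an average of 0.582 log2 CPM, DUSP8 (1.20), both named after their values were seen. Among the 6 genes named first, the largest adjusted p from edgeR was 0.0180.

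Of 22 genes known as AP-1 targets 19 were tested, of which 2 (10.5%) were higher and 9 (47.4%) lower, against 24.5% and 24.3% of all tested genes. The median log2 fold change was -0.43, where all tested genes had 0.01. This list, like the others, was chosen with earlier results of these data known, so its shares and median are a description only. CCND1, encoding cyclin D1, fell from 666 ± 13.6 to 367 ± 3.91 CPM (SD, n = 3), a difference of -0.86 in log2 units. HBEGF, a ligand of the EGF receptor, fell by 1.26 and the chemokine gene CXCL8 by 1.12 on the log2 scale, from mean levels of 6.81 and 9.30 CPM, and PLAUR, the urokinase receptor gene, fell by 0.61. The adhesion receptor gene CD44 rose by 0.19 on that scale. Adjusted p values from edgeR were between 3.93e-08 and 0.00916 for these 5 genes. All these targets are also controlled by other factors, and the files hold no measure of AP-1 binding.

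**Figure D4:**
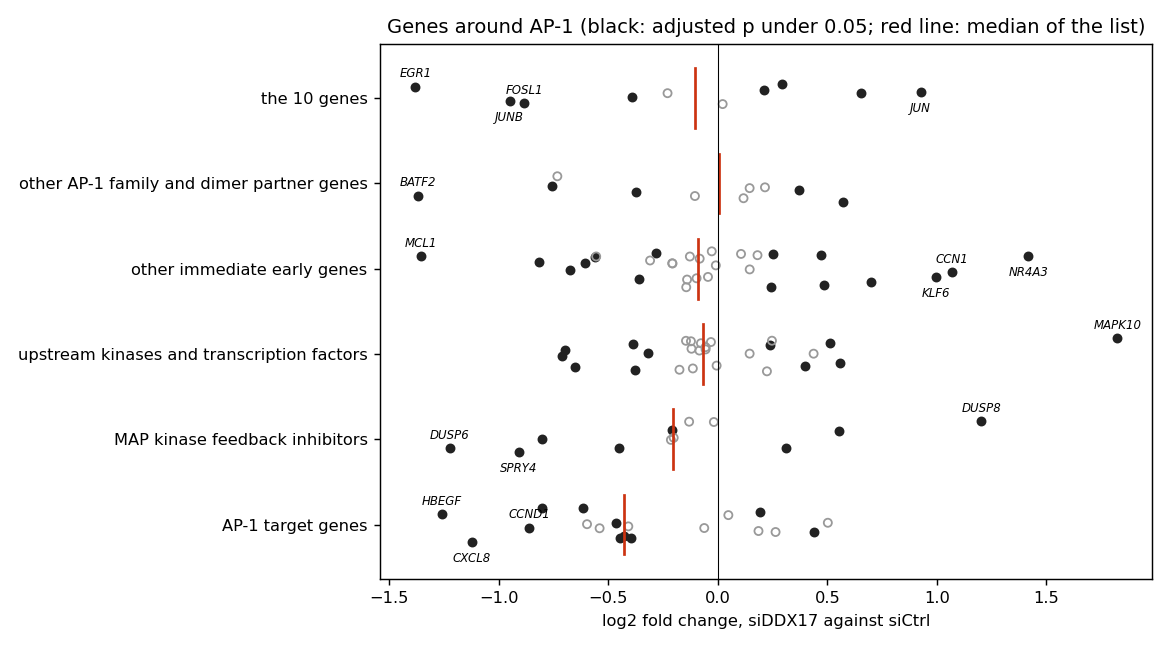
Log2 fold change of each tested gene in siDDX17 against siCtrl for the 10 genes and the 5 lists, on a linear axis, with filled black points for an adjusted p under 0.05, open grey points for the rest, a red line at the median of each list, and symbols beside the points farthest from 0. Genes lie on both sides of 0 in each list, and the median is lowest for the AP-1 target genes, at -0.43. The lists were chosen with earlier results of these data known.

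The genes whose levels followed those of FOS, JUN and EGR1 most closely were sought by the Pearson correlation of log2 CPM over the 6 libraries, taking only genes that averaged 3 log2 CPM or more. For FOS these were ATP2B4, DDC and CD38 (r = 0.998, 0.996 and 0.995), for JUN MRC2 and SLC2A3 (each r = 0.995), and for EGR1 MASTL, MAPK8 and RP11-603J24.9 (r = 0.9997, 0.997 and 0.995). The 6 libraries fall into groups of 3, so the points share the group difference, and r was above 0.95 for 366, 570 and 617 genes. These names are a description only.

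Sequence features were compared with those of the other tested genes. JUN, JUNB and JUND have a canonical transcript with a single exon, as do 2.12% of the 13103 coding genes tested. All 10 transcripts had a higher GC content, 50.4% to 69.9%, than the median of those genes, 48.8%, and 9 were shorter than the median mRNA of 3302 bases. The pentamer ATTTA, the core of AU-rich elements that mark short-lived mRNAs, was present in the 3' UTR of 9 of the 10, with 9 copies in FOSL2, 6 in IER3, 5 in FOS and 0 in IER2. It was present in 72.6% of the 12987 tested genes whose 3' UTR had 30 or more bases. The longer form TTATTTATT was present in 2 of the 10, FOS among them, and in 9.22% of all genes.

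Matches in the 3' UTRs to bases 2 to 8 of the siRNA strands are shown because an siRNA can also act through such seed matches. TATTGCT, which pairs with the antisense DDX17 siRNA, was in 1 of the 10 genes, IER3, and in 14.5% of all genes. TCGGAGA, which pairs with the sense control siRNA, was in FOSL2 and IER2, and in 2.13% of all genes. The 3' UTR sites are given in lower case with the matched letters in capitals, together with the AU-rich site of FOS.

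FOS, TTATTTATT: tttttaatTTATTTATTaagatgga
FOSL2, control siRNA match: gcccacctTCGGAGAcggcttct
IER2, control siRNA match: ttccaaccTCGGAGAattccagg
IER3, DDX17 siRNA match: ttatttctTATTGCTcctaatta

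The sites began at base 646 of 806 in the 3' UTR of FOS, at 709 of 4869 in FOSL2, at 456 of 1053 in IER2 and at 250 of 737 in IER3. Of the genes with a seed match, FOSL2 rose by a log2 fold change of 0.21, IER2 did not pass and IER3 fell by 0.39 on the log2 scale. ATGGGTG, for the sense DDX17 siRNA, was in 0 of the 10 genes and in 10.5% of all genes. TGTCACG, for the antisense control siRNA, was in IER3 alone of the 10 and in 3.07% of all genes. IER3 thus held a match to each of the siRNAs, and its site for the control siRNA is not printed. JUN, JUNB, JUND, FOS, FOSL1, ATF3 and EGR1 held none of these 4 matches in the 3' UTR. The part of seed matches in these differences was not tested.

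The fold changes of the 10 genes under other settings stayed near the values above for most genes. JUN, FOS, EGR1, JUNB, FOSL1 and IER3 passed in the same direction in all 15 other fits. With scaling by library size alone, all 10 values were higher, JUN reaching 1.05, and all tested genes had a median of 0.13 in place of 0.01. On the FPKM scales that median was 0.07 to 0.12.

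**Figure D5:**
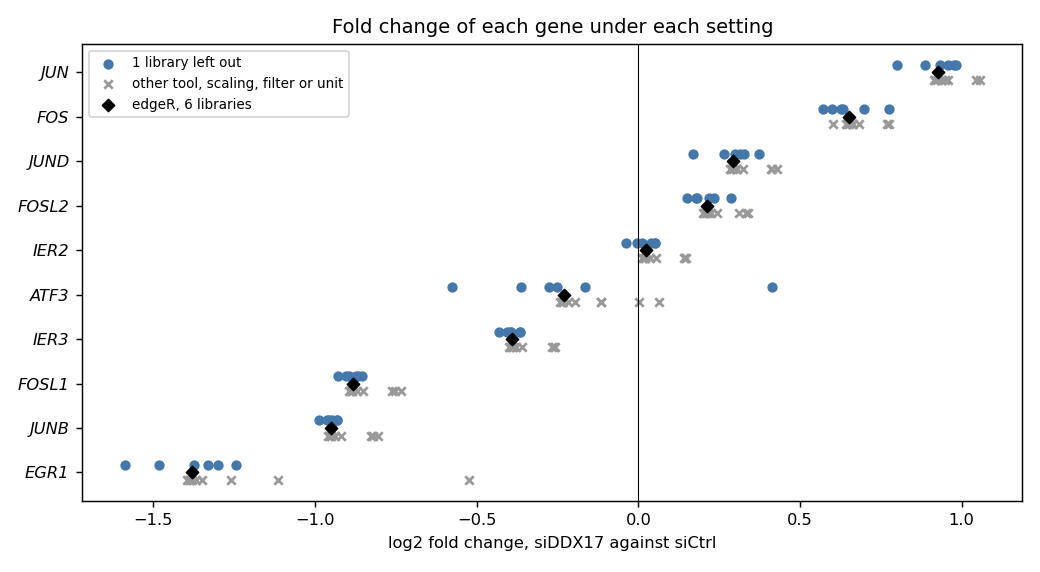
Log2 fold change of each of the 10 genes with edgeR and all 6 libraries (diamond), with each library left out in turn (blue points) and with another tool, scaling, filter or unit (grey crosses). ATF3 reaches from -0.575 to 0.41 and crosses 0, IER2 lies near 0, and the values of the other 8 genes keep their sign.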

How the data were processed

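The members and all gene lists were chosen with earlier results of these data known. Reads were cleaned by the authors and aligned to GRCh38 with TopHat2, and raw counts of uniquely mapped reads per gene and library were deposited. They also deposited FPKM values, divided by transcript length and library size and rounded. The counting program, annotation and use of strand are not given in the sources used here.

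The whole count table was fitted with edgeR 4.0.16 (R 4.3.3), with TMM scaling, its expression filter, glmQLFit and glmQLFTest, and Benjamini-Hochberg adjustment over 15615 genes, checked on simulated counts against a recovery limit that was lowered after the first limit was narrowly missed. Log2 CPM used a prior count of 2. FPKM served for levels between genes and for shares within families. The exact permutation test planned for the sums and shares is not used, since the shares restate the calls and 3 libraries against 3 cannot go below p = 0.1. FPKM was given for 29242 of the 29476 genes. DESeq2 1.42.0, limma 3.58.1 on log2(FPKM + 1) and log2(FPKM + 0.1), other scalings, filters, call limits, a replicate block and each library left out were alternatives. From each list, up to 4 passing genes per direction were named, with at least 1 log2 CPM on average and no overlap between the groups. A gene and a sequence that these rules would give are not reported here. Sequences came from RefSeq (GRCh38.p14) and GENCODE release 44, with Python 3.11.15.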

Additional observations from a re-analysis of the deposited data

How the results depend on the processing

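Of the 10 genes, 8 kept their direction in all 15 other fits. Of 150 pairs of gene and fit, 137 gave both the same call and the same sign. A limit of 1 on the log2 fold change left 0 genes higher and 1 lower, and the methods' own rule, p under 0.01 with a fold change over 1.5, left 2 higher and 3 lower. Leaving out single libraries gave 2 to 5 higher genes, the 5 without siCtrl 1 and the 2 without siCtrl 3, siDDX17 2 or siDDX17 3, where JUND and FOSL2 were lost. The log2 fold change of ATF3 changed sign on log2(FPKM + 1), to 0.00201, and on log2(FPKM + 0.1), to 0.0629, and ranged from -0.575 to 0.41 over the libraries left out. That of IER2 ranged from -0.0391 to 0.0519 and changed sign without siCtrl 3 (-0.00435) and without siDDX17 2, and it was 0.144 with library size only and 0.143 and 0.149 on the FPKM scales. In the 5 lists, the limit of 1 left 4 genes higher and 5 lower, and the rule of the methods 6 and 17. The sum of the Fos family changed by -26.0% in FPKM, by -17.3% in TMM-scaled CPM and by -32.0% in FPKM divided by the TMM factor, a setting chosen after seeing the data. The sum of the Jun family changed by -19.3% in FPKM and by -25.9% after the same division. In TMM-scaled CPM, which is not per length, the share of FOSL1 differed by -19.6 percentage points and that of JUNB by -24.9, against -16.1 and -22.3 in FPKM. The division lowers siDDX17 against siCtrl by construction, since the TMM factors were 0.934 to 0.985 in siCtrl and 1.03 to 1.06 in siDDX17. Shares within a library do not depend on that factor, so those in CPM and FPKM differ by the division by length. The Fos family sums in TMM-scaled CPM and in FPKM differ in both respects.

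Same-numbered libraries of the groups did not deviate together (correlations 0.007, 0.041 and -0.056 across genes). With the replicate block, 4 of the 10 genes were higher and 4 lower, as without it, and 21 genes of the lists were higher and 30 lower. Depth limits EGR1 and ATF3 most, with as few as 44 and 83 reads in a library.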
